A study of Homo sapiens with 4 samples.

Results

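The genes described here are the small nucleolar and Cajal body RNAs of LNCaP cells, a line of human prostate cancer cells that respond to androgen. They were chosen by symbol and by measured RPKM, as all genes whose symbol starts with SNORA (box H/ACA), SNORD (box C/D) or SCARNA (Cajal body) and whose RPKM reached 1 in at least 1 of the 4 libraries. RPKM is reads scaled to the length of the gene and to the reads of the library. This gave 167 genes of 19801 listed: 64 of box H/ACA, 93 of box C/D and 10 of the Cajal body class. Cells with the empty vector and cells with AR1-651 were each left without AIL or given AIL, and each condition is 1 library. AR1-651 is a truncated receptor without the ligand-binding domain, and AIL is ailanthone, a plant compound. All cells were transfected for 24 h, with the empty plasmid or with AR1-651, and AIL was given for the next 12 h. Differences between conditions therefore lack any check by replicates and carry no p-value.

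Small nucleolar RNAs guide chemical changes of other RNAs, mainly ribosomal RNA. Box C/D RNAs carry a C box and a D box near their ends, bind fibrillarin and guide ribose methylation. Box H/ACA RNAs fold into hairpins, end in an ACA box, bind dyskerin and guide the change of uridine to pseudouridine. Cajal body RNAs have the same kinds of boxes, are kept in the Cajal body and act on spliceosomal RNAs. In human cells most of them are cut out of introns of host genes, many of which encode ribosomal proteins or long RNAs of the SNHG type. They have no poly(A) tail, so the way RNA is selected decides how much of them a library holds. The study's methods describe total RNA depleted of ribosomal RNA, cut by RNase III and selected by size for short fragments. The labels name the same kind of kit but also selection by oligo(dT), so the sources differ on that step.

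The following sequences are those of the genes with the most reads in the box C/D and box H/ACA classes, from the GENCODE release 29 transcripts (GRCh38). They show the boxes that set the classes apart. Capitals mark TGATG, the core of the C box, and CTGA, the D box, in box C/D RNAs, and the ACA box in box H/ACA RNAs.
SNORD58B: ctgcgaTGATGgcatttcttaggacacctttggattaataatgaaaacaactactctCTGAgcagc
SNORD104: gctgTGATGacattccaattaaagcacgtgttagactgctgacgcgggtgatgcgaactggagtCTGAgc
SNORD86: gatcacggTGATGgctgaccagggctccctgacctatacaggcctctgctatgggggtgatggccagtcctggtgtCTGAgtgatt
SNORA50C: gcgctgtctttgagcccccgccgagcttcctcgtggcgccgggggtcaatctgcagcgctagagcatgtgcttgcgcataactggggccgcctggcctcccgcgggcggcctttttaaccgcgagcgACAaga
SNORA67: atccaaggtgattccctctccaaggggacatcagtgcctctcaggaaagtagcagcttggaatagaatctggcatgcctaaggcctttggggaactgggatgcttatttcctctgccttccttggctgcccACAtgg
SNORA57: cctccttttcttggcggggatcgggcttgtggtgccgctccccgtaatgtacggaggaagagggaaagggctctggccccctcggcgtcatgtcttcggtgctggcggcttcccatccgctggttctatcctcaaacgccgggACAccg

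SNORD58B lies at chr18:49491664-49491729 on the minus strand, inside an exon of RPL17, a ribosomal protein gene. SNORD104 (chr17:64146083-64146152) and SNORA50C (chr17:64146339-64146471) are neighbours on the plus strand and both lie in SNHG25. SNORD86 (chr20:2656097-2656182, plus strand) lies in NOP56, which encodes a core protein of box C/D particles. SNORA67 (chr17:7577955-7578091, plus strand) lies in EIF4A1, an initiation factor gene. SNORA57 (chr11:62665422-62665570, plus strand) lies in CSKMT. The deposited values carry no coordinates, and these positions come from GENCODE alone.

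The motifs followed the classes given by the symbols. Searched on the transcript strand, TGATG stood in the first 15 bases of 68 of 82 box C/D RNAs with a sequence (82.9%), of 0 of 64 box H/ACA RNAs and of 1 of 8 Cajal body RNAs. CTGA stood in the last 15 bases of 77 box C/D RNAs (93.9%) and of 1 box H/ACA RNA (1.56%). ACA stood in the last 6 bases of 59 box H/ACA RNAs (92.2%), of 7 Cajal body RNAs (87.5%) and of 5 box C/D RNAs (6.1%). A full TGATGA was found in the same first window of 51 box C/D RNAs (62.2%). CTGA and ACA can overlap where CTGA is followed by CA.

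The libraries held prostate cell transcripts. KLK3, an androgen-induced gene that encodes prostate-specific antigen, had an RPKM of 287 and 303 in empty vector cells without and with AIL, and of 1442 and 582 in AR1-651 cells without and with AIL. Values for the 4 libraries are given in this order below. KLK2 and TMPRSS2, also induced by androgen, were highest with AR1-651. PTPRC and PECAM1, markers of blood and endothelial cells, stayed under RPKM 1 in all 4 libraries. COL1A1, a fibroblast marker, lay between 1.75 and 4.59.

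The RPKM values of these short genes came in steps, and the steps were used to work out how many reads each value stood for. RPKM was proportional to whole reads divided by the gene length minus 36 nt. In the 4 libraries 84.8%, 91.1%, 92.7% and 97.3% of the values under 8 reads came out whole within 0.05 of a read. For other genes with a span of at most 250 nt, microRNA genes included, the shares were 55.7%, 62.7%, 53.4% and 50.6%. Read numbers of those genes are therefore less certain. The implied depth was 5170000, 4910000, 5630000 and 5810000 reads or read pairs, which the sources do not tell apart. A lone read gave a gene of 70 nt an RPKM of 5.69, 5.99, 5.22 and 5.06, and a gene of the length of SNORA50C 1.99, 2.10, 1.83 and 1.77. At these lengths, 1 read in a library against 0 in another therefore already made a difference of at least 2-fold in log2(RPKM + 1). The read numbers below are implied in this way and are not exact counts.

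Most of the 167 genes rested on very few reads. The library with the most reads held at most 1 read for 67 genes and at most 3 reads for 128 genes (76.6%). At least 5 reads were reached by 29 genes and at least 10 reads by 10 genes. RPKM was above 0 in all 4 libraries for 36 genes and in only 1 library for 57 genes, namely 29, 9, 12 and 7 genes in the order of the libraries. The genes above 0 numbered 116, 81, 103 and 78 in the 4 libraries. A value of 0 means that the gene was not detected at this depth and allows up to 3 reads.

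**Figure D1:**
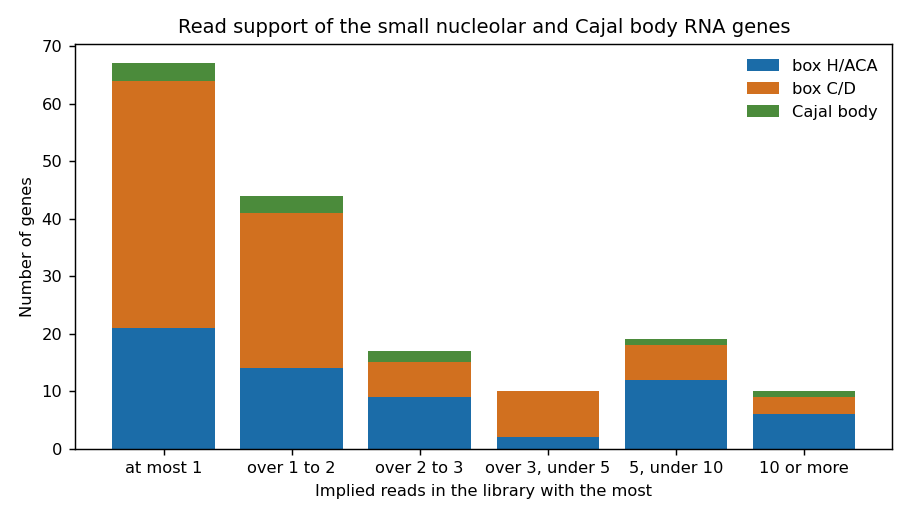
Number of genes (vertical axis) by the implied reads in the library with the most (horizontal axis), coloured by class. The first 3 bars, up to 3 reads, hold 128 of the 167 genes, and the last bar holds 10.

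The classes differed in length and in read support. Box H/ACA RNAs had a median length of 133.5 nt, box C/D RNAs of 77 nt and Cajal body RNAs of 162 nt. At most 3 reads in every library were found for 68.8% of box H/ACA, 81.7% of box C/D and 80% of Cajal body RNAs. Since a read weighs more in a shorter gene, RPKM sets a gene with few reads higher when it is short. The threshold of RPKM 1 acted in the same way. The genes just below it were SNORA58 with a highest RPKM of 0.97 and SNORD17 with 0.88, both at 1 read. Those just above it were SCARNA9 with 1.12 at 2 reads and SNORA74A with 1.18 at 1 read.

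Summed over all 167 genes, the libraries held 279, 175, 381 and 244 reads, or 53.9, 35.6, 67.7 and 42.0 RPM, which is reads scaled to a library of 1000000 reads. The AR1-651 library was highest and the empty vector + AIL library lowest. Box H/ACA RNAs gave 24.5, 16.8, 32.5 and 21.9 RPM, and box C/D RNAs 24.7, 17.1, 32.2 and 19.1. These classes thus had nearly equal sums in each library. Cajal body RNAs gave 4.6, 1.6, 3.0 and 1.0 RPM, from 24, 8, 17 and 6 reads. SNORD58B, SNORA67 and SNORA57 together held 18.2% of the 1079 reads, and the 10 genes with the most reads held 36.6%.

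**Figure D2:**
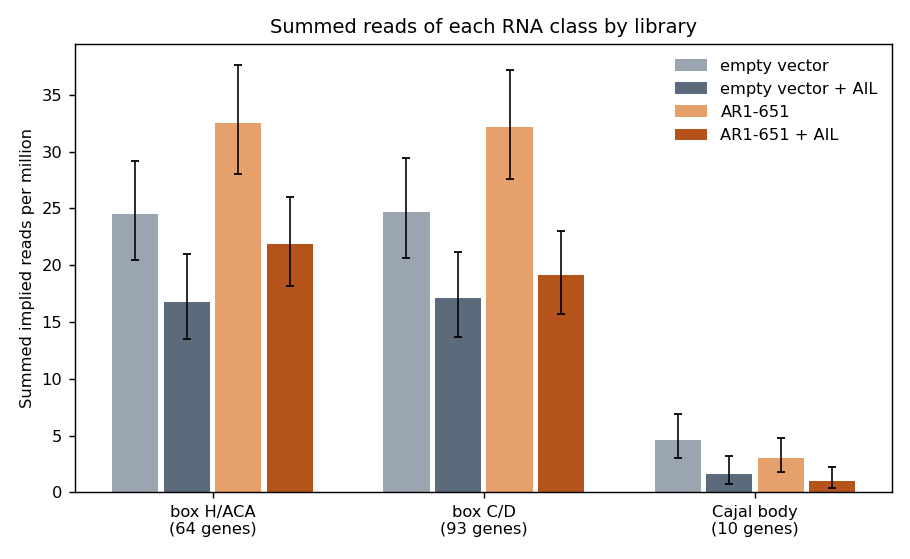
Summed implied RPM (vertical axis) of each class in the 4 libraries (bars), with 95% exact Poisson intervals that cover counting error only. The box H/ACA and box C/D sums were highest with AR1-651, at 32.5 and 32.2, and both AIL libraries lay below their counterparts without AIL in every class.

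The position in the host gene went with the number of reads. Of the 167 genes, 98 lay within an annotated exon of another transcript on the same strand (strand was not used for genes without a GENCODE match), retained-intron transcripts included, and these held 78.8% of the reads. The 54 genes found only in introns (32.3%) held 14.4% of the reads. The median of the highest read number was 2 for the former and 1 for the latter. Reads of host transcripts that cross the small RNA cannot be told apart from its own in these values. Of the 10 genes with at least 10 reads, 8 were of the exon kind, 1 was partly within an exon (SCARNA12) and 1 was in an intron only (SNORD104).

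SNORD58B had the highest RPKM of all, at 139, 31.0, 250 and 226, or 21.6, 4.6, 42.2 and 39.4 reads. The empty vector + AIL library was the low one, and both AR1-651 libraries were the high ones. Its host RPL17 had an RPKM of 1799, 1993, 4401 and 2655. SNORD58B lies in an exon of a protein-coding transcript of its host, and its implied reads were not whole numbers. The part of RPL17 reads in its value was not tested.

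**Figure D3:**
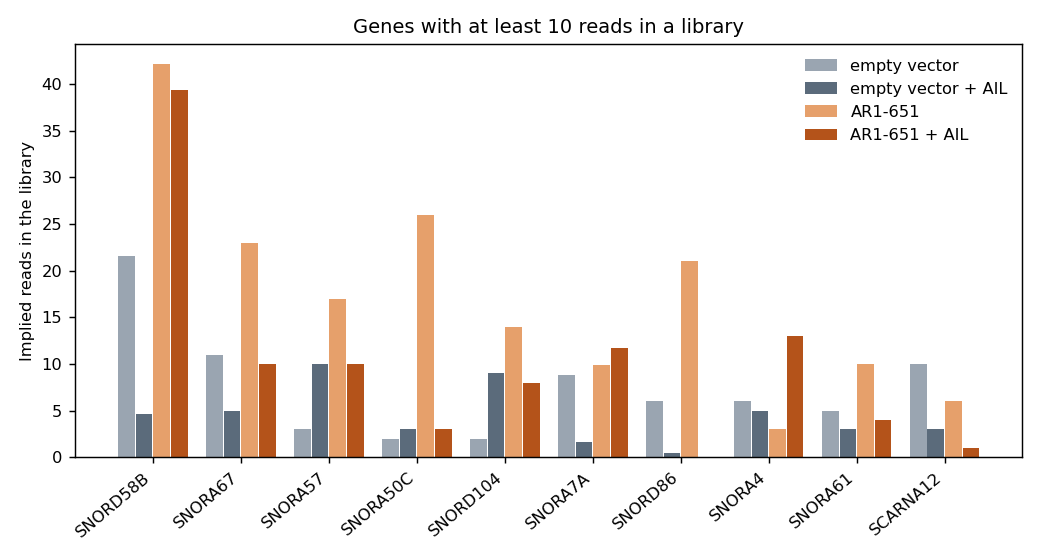
Implied reads (vertical axis) in each of the 4 libraries (bars) for the 10 genes with at least 10 reads in a library. SNORD58B reaches 42.2 reads with AR1-651, while SNORA50C has 26 reads there and at most 3 in each other library.

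The first comparison set the truncated receptor against the empty vector without AIL. The neighbours SNORA50C and SNORD104, SNORA57, SNORD86 and SNORA18 had more reads with AR1-651 than with empty vector, while SNORA6 and SNORA81 had fewer. SNORA50C had 26 reads against 2, a ratio of 11.9 after scaling to depth (95% interval 2.99 to 104). SNORD104 had 14 reads against 2, a ratio of 6.43 (1.48 to 58.3). Ratios are given with exact conditional intervals on reads rounded to whole numbers. They cover counting error only and compare these libraries, not the conditions.

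SNORA57 had 17 reads with AR1-651 and 3 with empty vector, a ratio of 5.21 (1.51 to 27.7). SNORD86 had 21 and 6 reads, a ratio of 3.22 (1.26 to 9.74). SNORA18, which lies in TAF1D, had 9 reads and 1 read, a ratio of 8.27 (1.15 to 362). For SNORD58B the ratio was 1.75 (1.02 to 3.09). The interval of SNORA67, with 23 and 11 reads, held 1 (ratio 1.92, 0.90 to 4.37). In the other direction, SNORA6 of RPSA had 2 reads against 9 (ratio 0.204, 0.0215 to 0.986). SNORA81 of EIF4A2 had 0 reads with AR1-651 against 7.9 with empty vector and was at least 2.88-fold lower, taking 3 reads for the 0.

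SNORD22, which is made from SNHG1, had 7 reads against 1, and its interval was wide (ratio 6.43, 0.83 to 290). SNORD3A, the U3 RNA that acts in the cleavage of ribosomal RNA precursors, has a gene of its own without a host. It had 0.5, 7, 6 and 7 reads, low with empty vector and alike in the other libraries. Compared with empty vector, its value under AR1-651 was at least 1.84-fold higher, taking 3 reads for the lower library. SNORD3A has near-identical copies, so its reads are uncertain.

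By the 2-fold rule, 49 of the 167 genes were higher and 50 lower with AR1-651 than with empty vector. Over all 14626 genes with RPKM of at least 1 in a library, 4.01% were higher and 11.6% lower. The higher calls had at most 3 reads in the upper library for 35 genes, and the lower ones for 43. With at least 10 reads there, 4 genes were higher and 0 lower. The lower library had no reads for 33 of the higher and 46 of the lower calls. The 29 genes above 0 with empty vector alone and the 12 with AR1-651 alone passed the filter through that library. They are called by construction, here and in each other comparison that uses it. Box H/ACA RNAs had 23 higher and 17 lower, box C/D RNAs 24 and 30, and Cajal body RNAs 2 and 3. The median change was 0.00 over the 167 genes and -0.30 over all genes. The 188 microRNA genes that passed the same filter, which are short as well, had 36 higher (19.1%) and 71 lower (37.8%).

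The summed RPM was 1.25 times (1.07 to 1.47) as high with AR1-651 as with empty vector. The ratio was 1.32 (1.05 to 1.67) for box H/ACA, 1.30 (1.03 to 1.64) for box C/D and 0.651 (0.328 to 1.26) for Cajal body RNAs. Leaving out some genes lowered the ratios, and most intervals then held 1. SNORD58B, SNORA67, SNORA57 and SNORA50C all had more reads with AR1-651, so dropping them lowers the ratio by construction. Without SNORD58B alone the sum over all genes was 1.21 (1.03 to 1.43). Without SNORD58B, SNORA67 and SNORA57 the sum over all genes gave 1.13 (0.951 to 1.34), and without the 22 genes with part reads 1.15 (0.964 to 1.37). Box H/ACA RNAs without SNORA50C gave 1.15 (0.907 to 1.47), and box C/D RNAs without SNORD58B gave 1.20 (0.929 to 1.57). Genes within an annotated exon gave 1.39 (1.16 to 1.66), and genes in an intron only 0.956 (0.633 to 1.45). MicroRNA genes gave 0.986 (0.880 to 1.10). The 242 genes outside the 3 classes with a span of at most 250 nt include these microRNA genes. Together they gave 1.19 (1.08 to 1.31), near the value of the small RNAs.

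The second comparison addressed AIL in cells with empty vector. All 3 classes had fewer reads with AIL, and SNORD58B, SNORD86 and SNORA81 were among the lower genes. SNORD58B had a ratio of 0.240 (0.0709 to 0.648). SNORD86 had 0.4 reads with AIL and 6 without, at least 1.90-fold lower when 3 reads are taken for the lower library. SNORA81 had 0 and 7.9 reads and was at least 2.51-fold lower. SNORA7A, which lies in RPL32, had 1.6 and 8.8 reads, with a ratio of 0.234 whose interval reached 1.13.

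Some genes were higher with AIL. SNORD3A was at least 2.46-fold higher, with 7 reads against 0.5. SNORD104 had 9 reads against 2 (ratio 4.74, 0.98 to 45.1) and SNORA57 10 against 3 (ratio 3.51, 0.91 to 19.9), and both intervals held 1. This comparison and the one before share the empty vector library, and a gene with few reads there is set higher in both.

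By the 2-fold rule, 32 genes were higher and 72 lower with AIL, beside 9.53% and 9.03% of all genes. The upper library held at most 3 reads in 26 and 58 of these calls. At least 10 reads were held in 1 and 2 calls. The lower library had no reads in 25 and 60 of them, and the 29 genes seen with empty vector alone are among the latter. The median change was -0.32, against -0.02 over all genes. Of the 188 microRNA genes, 54 were higher (28.7%) and 73 lower (38.8%), so calls in both directions were frequent in another class of short genes.

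The sum was 0.661 times (0.544 to 0.802) that of empty vector without AIL. The ratio was 0.689 (0.516 to 0.916) for box H/ACA, 0.692 (0.519 to 0.918) for box C/D and 0.351 (0.136 to 0.809) for Cajal body RNAs, and these intervals overlap. It was 0.672 (0.546 to 0.826) without the 3 genes with the most reads. For box C/D RNAs without SNORD58B, itself low with AIL here, the interval held 1 (0.796, 0.588 to 1.07). In genes of introns only the interval also held 1 (0.732, 0.458 to 1.16), while genes within an annotated exon gave 0.623 (0.495 to 0.783). The 3 genes without a host, SNORD3A among them, gave 3.51 (0.905 to 19.9). MicroRNA genes gave 1.02 (0.911 to 1.15), with 574 and 591 reads, and the set of short genes that includes them 1.04 (0.939 to 1.15).

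The third comparison set AR1-651 + AIL against AR1-651. SNORD86 and SNORA50C, both high with AR1-651, were low with AIL, whereas SNORD58B and SNORD3A were nearly level. The AR1-651 library serves both this comparison and the first, so a gene with many reads there is set higher in the first and lower here. SNORD86 went from 21 reads to 0 and was at least 7.23-fold lower, taking 3 reads for the 0. SNORA50C had 3 reads against 26 (ratio 0.112, 0.0217 to 0.365). SNORA67 had 10 against 23 (ratio 0.421, 0.179 to 0.920). For SNORD58B the ratio was 0.900 (0.567 to 1.43). SNORD104, the neighbour of SNORA50C, had 8 reads against 14, and its interval held 1 (ratio 0.554, 0.201 to 1.41).

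SNORA4, which lies in EIF4A2, was higher with AIL, with 13 reads against 3 (ratio 4.20, 1.15 to 23.0). Its neighbour SNORA81 had 6 reads against 0 and was at least 1.92-fold higher. The 3 genes of EIF4A2 (SNORA4, SNORA63 and SNORA81) together had 20, 6, 7 and 25 reads in the 4 libraries. They were low with AIL in cells with empty vector (ratio 0.316, 0.104 to 0.817) and high with AIL in cells with AR1-651 (3.46, 1.46 to 9.48). EIF4A2 itself had an RPKM of 351, 472, 366 and 712.

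By the 2-fold rule, 24 genes were higher and 60 lower, beside 14.9% and 5.74% of all genes. The upper library held at most 3 reads in 20 and 46 of these calls and at least 10 reads in 1 and 4. The lower library had no reads in 20 and 45. The median change was -0.04, against 0.13 over all genes. Of the 188 microRNA genes, 29 were higher (15.4%) and 52 lower (27.7%). The sum over the 167 genes was 0.621 times (0.526 to 0.731) that of AR1-651. Box H/ACA RNAs gave 0.672 (0.532 to 0.848), box C/D RNAs 0.594 (0.465 to 0.757) and Cajal body RNAs 0.342 (0.110 to 0.909). Genes in an intron only gave 0.418 (0.241 to 0.702) and genes within an annotated exon 0.633 (0.528 to 0.757). The 12 genes partly within an exon gave 0.872 (0.314 to 2.39) and the 3 without a host 1.11 (0.351 to 3.59). MicroRNA genes gave 1.03 (0.927 to 1.15) and the set of short genes that includes them 0.962 (0.879 to 1.05).

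The fourth comparison set AR1-651 + AIL against empty vector + AIL. SNORD58B stood apart here, with 39.4 reads against 4.6 (ratio 6.59, 2.59 to 21.4). SNORA7A had 11.7 against 1.6 (ratio 5.07, 1.13 to 46.6). The second comparison uses the same empty vector + AIL library, so a gene with few reads there is set lower in it and higher here. SNORA8 of TAF1D was lower, with 1 read against 7 (ratio 0.121, 0.00268 to 0.939). SNORA50C had 3 reads in each. By the 2-fold rule 38 genes were higher and 39 lower, beside 1.46% and 3.53% of all genes. In the upper library 31 and 34 of them had at most 3 reads, and in the lower library 28 and 28 had none. Of the 188 microRNA genes, 31 were higher (16.5%) and 58 lower (30.9%).

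The sum was 1.18 times (0.966 to 1.44) that of empty vector + AIL and 1.02 times (0.827 to 1.26) without SNORD58B, which was itself higher here. Genes within an annotated exon gave 1.41 (1.12 to 1.77), while genes in an intron only gave 0.546 (0.304 to 0.962), in the other direction. The former sum contains SNORD58B.

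**Figure D4:**
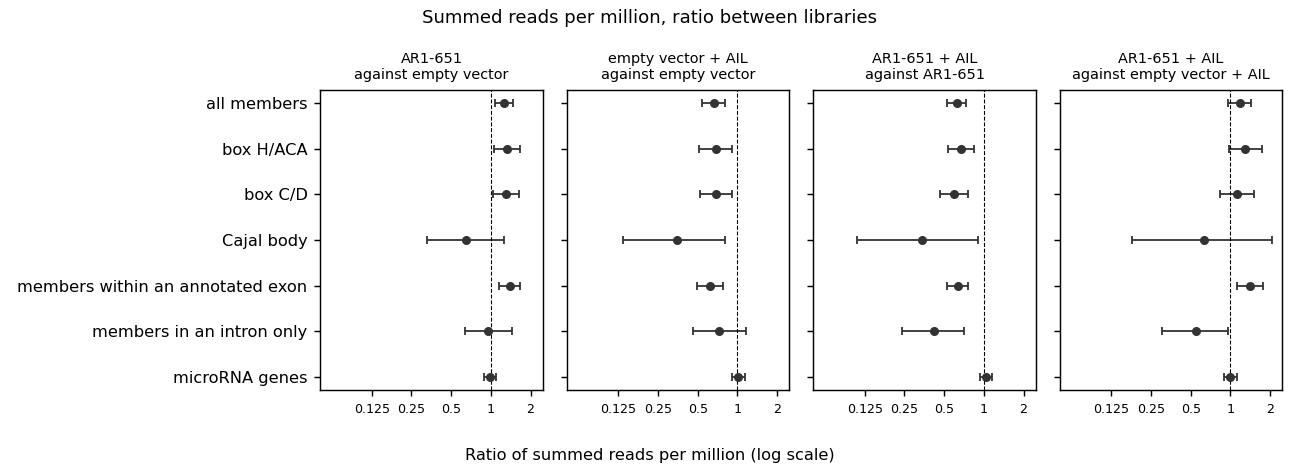
Ratio of summed implied RPM between libraries (horizontal axis, log scale) for sets of genes (rows), with 95% exact conditional intervals that cover counting error only. "Members" are the 167 genes. In both AIL comparisons all 3 classes lie below 1, at 0.342 to 0.692, while microRNA genes lie at 1.02 and 1.03.

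**Figure D5:**
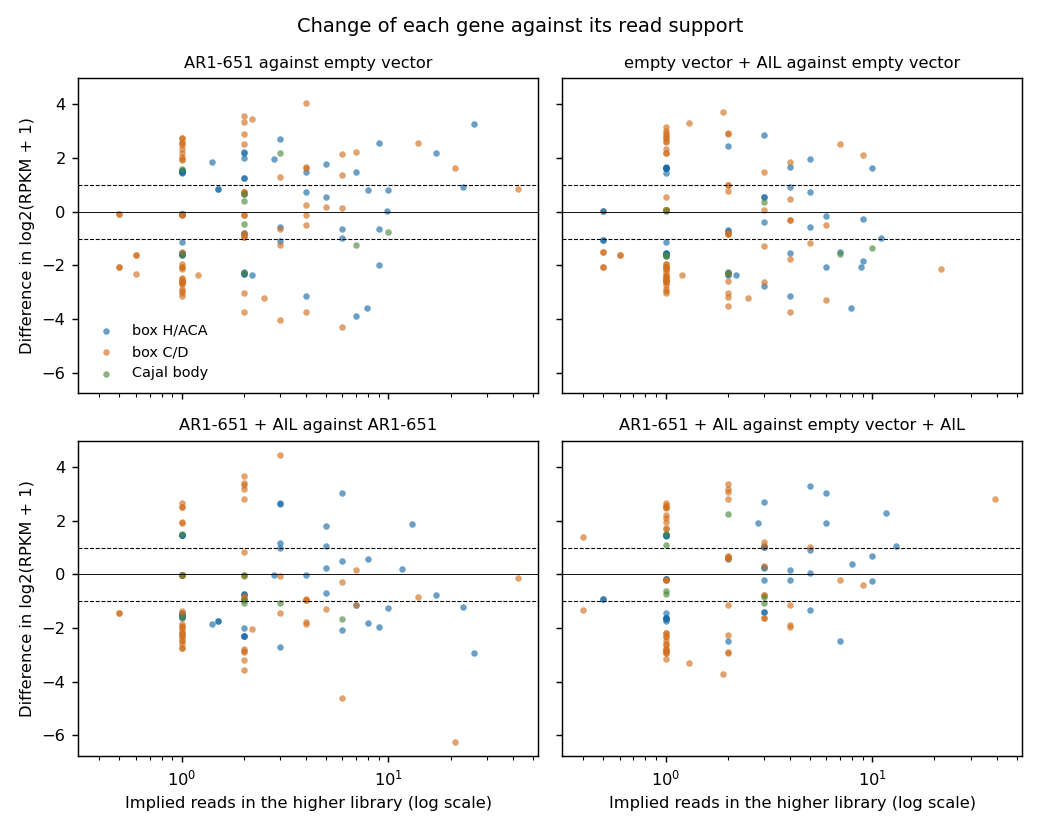
Difference in log2(RPKM + 1) of each gene (vertical axis) against its implied reads in the higher of the 2 libraries (horizontal axis, log scale), in 4 comparisons and coloured by class, with dashed lines at 2-fold. Genes detected in neither library are left out. Most points beyond the dashed lines lie at 1 to 3 reads, as 35 of the 49 higher and 43 of the 50 lower calls did for AR1-651 against empty vector.

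Among the Cajal body RNAs, SCARNA12 of PHB2 had the most reads, with 10, 3, 6 and 1. Both AIL libraries lay below their counterparts, but each interval held 1 (ratio 0.316, 0.0559 to 1.23 with empty vector; 0.161, 0.00351 to 1.33 with AR1-651). SCARNA2 had 7, 1, 2 and 0 reads and was likewise highest with empty vector. SCARNA17, which has no host gene, had 2, 3, 1 and 1 reads. SCARNA15 had 1, 0, 2 and 2 reads, SCARNA16 had 0, 0, 3 and 1, and SCARNA9 had 1, 1, 2 and 0. SCARNA11 was seen only with empty vector, at 2 reads. SCARNA8, SCARNA20 and SCARNA22 had 1 read each in all. None of these RNAs passed 10 reads in any library.

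Other genes detected in all 4 libraries had flatter or sparser values. SNORD80 of GAS5 had 5, 2, 6 and 5 reads, and SNORD36A of RPL7A had 4, 3, 4 and 1. SNORA61 of SNHG12 had 5, 3, 10 and 4 reads, highest with AR1-651, and each of its intervals held 1. SNORA63 of EIF4A2 had 6, 1, 4 and 6 reads, lowest with empty vector + AIL.

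The box C/D RNAs that act in cleavage of ribosomal RNA precursors or have a promoter of their own were hardly covered apart from SNORD3A and SNORD22. SNORD13, which has no host gene and guides acetylation of ribosomal RNA, had 1 read with empty vector and none elsewhere. SNORD14A also had 1 read with empty vector alone. SNORD14B had 2 reads with AR1-651 alone, and SNORD14C had 2, 1, 1 and 0 reads. Of the box H/ACA RNAs that act in precursor cleavage, SNORA73A had 3, 2, 1 and 3 reads and SNORA73B 0, 0, 2.8 and 2.8.

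The SNORD116 family of the imprinted SNHG14 locus had 9 of the 167 genes, with 10, 3, 1 and 2 reads in all. Its ratio of AR1-651 to empty vector was 0.0919 (0.00212 to 0.646). However, SNORD116-1, SNORD116-4, SNORD116-17, SNORD116-19 and SNORD116-21 were above 0 with empty vector alone. They passed the filter through that library, so nothing is read from this ratio about the family. Some of its copies are near-identical, and SNORD116-17 and SNORD116-19 had equal values in every library, so reads could be split among copies. No gene of the SNORD113, SNORD114 or SNORD115 families was among the 167.

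The host genes were set beside their small RNAs. A host was found for 164 of the 167 genes, in 93 host genes. Of these, 27 have the symbol of a ribosomal protein gene, the pseudogene RPL32P3 included, and 20 are SNHG genes, GAS5, ZFAS1 or DANCR. Host RPKM was listed for 148 genes with 87 hosts. Of the called genes with a listed host, 10 of 83, 6 of 89, 8 of 79 and 0 of 72 had a host called in the same direction, in the order of the 4 comparisons, and 4, 9, 9 and 0 had a host called in the other direction. Hosts called numbered 13 higher and 5 lower, 9 and 3, 10 and 4, and 0 and 0 of 87. Over all genes, 4.01% were higher and 11.6% lower, then 9.53% and 9.03%, 14.9% and 5.74%, and 1.46% and 3.53%. With AR1-651 against empty vector, hosts were thus more often higher and less often lower than all genes. Few hosts were called in any comparison, so the counts of shared direction say little about whether small RNAs and hosts moved together. The median change of the hosts was 0.06, 0.02, -0.10 and 0.17, against -0.30, -0.02, 0.13 and -0.03 over all genes.

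SNHG1, the host with the most genes, had an RPKM of 28.7, 119, 28.0 and 158, far higher in both AIL libraries. Its 8 box C/D RNAs together had 5, 5, 13 and 9 reads, and AIL gave ratios of 1.05 (0.243 to 4.58) with empty vector and 0.671 (0.253 to 1.70) with AR1-651. The 7 genes of TAF1D had 19, 19, 34 and 13 reads, with the ratio of AR1-651 + AIL to AR1-651 at 0.370 (0.179 to 0.720). TAF1D itself had an RPKM of 19.2, 20.4, 18.5 and 33.4. The 6 genes of GAS5 had 13, 10, 15 and 12 reads. GAS5 itself had an RPKM of 250, 407, 439 and 551.

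Proteins that build and process these RNAs were described from fixed lists of 25 genes. At least 2-fold higher and lower were 0 and 1 with AR1-651, 5 and 0 with AIL in empty vector cells, 8 and 0 with AIL in AR1-651 cells, and 0 and 0 between the AIL libraries. Over all genes, 9.53% and 14.9% were higher in the AIL comparisons with empty vector and with AR1-651, and 9.03% and 5.74% lower. The median changes on the lists were 0.00, 0.45, 0.64 and 0.16, against -0.30, -0.02, 0.13 and -0.03 over all genes. The genes of 3′ end trimming were the most often called, with 3 of 4 higher in each AIL comparison and none called in the others. PARN, on the same list, was called in no comparison. EXOSC10, a nuclease of the nuclear exosome, had an RPKM of 20.9, 73.2, 29.5 and 90.0. TENT4B, which adds short tails that the exosome acts on, had 3.17, 11.7, 2.63 and 15.6. TOE1, a nuclease that trims small RNA ends, had 7.33, 19.7, 5.39 and 13.1. In all 3 both AIL libraries were above both others.

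Of the 8 core protein genes, NOP56 was at least 2-fold higher with AIL in empty vector cells and NOP58 in AR1-651 cells, and no other was called in any comparison. FBL, which encodes fibrillarin, had an RPKM of 127, 168, 213 and 188, and DKC1, which encodes dyskerin, 37.7, 43.5, 31.0 and 40.3. NOP56, the host of SNORD86, had 66.2, 165, 80.3 and 158, so it was higher in the AIL libraries, where SNORD86 had 0.4 and 0 reads. COIL, which encodes the Cajal body protein coilin, had 10.5, 22.0, 11.2 and 25.8. WRAP53, on the same list of 13 assembly and Cajal body factors, had 13.6, 9.43, 8.59 and 8.86. Of these 13 genes, 1 was called higher with AIL in empty vector cells and 4 in AR1-651 cells, with COIL among both, and 0 were called lower. Whether these levels bear on the small RNAs was not tested.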

How the data were processed

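RNA of 4 LNCaP conditions was sequenced as 1 library each. The authors deposited RPKM per gene, rounded to 2 decimals. The submitters' processing notes name BWA 0.7.10-r789 and hg19, and the counting tool and annotation release are not given in the sources used here. Entrez Gene identifiers were turned into symbols with RefSeq (19703 of 19801 matched), and hosts, positions and sequences from GENCODE release 29 on GRCh38 (158 of 171 listed small RNA genes matched). A change is the difference of log2(RPKM + 1), which understates changes of low values, and a call is at least 2-fold. The members and lists were chosen with earlier results of these data known.

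Reads were worked out from the steps of RPKM. Summed reads carry exact Poisson intervals, and ratios carry exact conditional (Clopper-Pearson) intervals, all at 95%. Genes named are the 4 highest in mean RPKM of each class, the 3 largest rises and falls per comparison among genes that reached RPKM 1 in each library, every Cajal body RNA, the RNAs of precursor cleavage or with a promoter of their own, the imprinted families and the genes nearest the threshold. SNORA81 and the other genes with at least 10 reads (SNORA61 included) were named after their values were seen, as were the host families with several members.

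Alternatives tried for the counts were median-ratio scaling, another pseudocount (0.1), another threshold (1.5-fold), no filter, RPKM of at least 5 in a library, RPKM of at least 1 in each library, no genes under 100 nt, and at least 10 reads. For sums, leaving out genes and scaling were added after seeing the data. The calculations were tested on simulated data with known answers. The test of the calls raised 200 genes 4-fold with small noise and no counting error, so it says nothing about calls that rest on few reads. Python 3.11.15, NumPy 2.4.6, pandas 2.3.3, SciPy 1.17.1 and matplotlib 3.10.9 were used. One gene of the marker list is not reported here.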

Additional observations from a re-analysis of the deposited data

Results flagged for a closer look

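SNORA18, SNORD60, SNORA6 and SNORD86 differed at least 2-fold in opposite directions in the 2 backgrounds, and none of these differences was tested, since each value is 1 library. SNORA18 had 1, 5, 9 and 2 reads, so AIL went with a change of 1.95 on the log2(RPKM + 1) scale with empty vector and -1.94 with AR1-651, a difference of -3.89. The same difference of -3.89 separates its change with AR1-651 under AIL (-1.34) from that without AIL (2.55). SNORD60, which lies in SNHG19, had 1, 4, 4 and 1 reads, with AIL changes of 1.84 and -1.79, a difference of -3.63. Its AR1-651 changes were 1.66 without AIL and -1.98 with it. SNORA6, which lies in RPSA, had 9, 2, 2 and 5 reads, and its AIL changes were -1.83 and 1.06, a difference of 2.89. SNORD86 had AR1-651 changes of 1.64 without AIL and -1.32 with AIL, a difference of -2.96, and the latter set 0 reads against 0.4.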

How the results depend on the processing

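No paired analysis was possible because each condition has 1 library. In the order of the 4 comparisons, higher before lower, the counts of 49 and 50, 32 and 72, 24 and 60, and 38 and 39 stayed within 1.5 times under median-ratio scaling, a pseudocount of 0.1, no filter and a threshold of 1.5-fold. With RPKM of at least 5 in a library they were 27 and 22, 22 and 33, 15 and 30, and 22 and 28. With RPKM of at least 1 in all 4 libraries they were 11 and 2, 6 and 8, 2 and 12, and 9 and 8. Without genes under 100 nt they were 29 and 23, 15 and 35, 13 and 34, and 22 and 15. With at least 10 reads in 1 of the 2 libraries they were 4 and 0, 1 and 2, 1 and 4, and 3 and 0. These 4 settings keep fewer genes by construction (90, 33, 84 and 4 to 9). No named gene called in the main setting changed sign, but this outcome was fixed in advance. Only median-ratio scaling can turn a sign, and its shift of at most 0.27 in log2 is smaller than the 2-fold of a call.

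The summed ratio of AR1-651 to empty vector turned from 1.25 to 0.956 in genes of introns only (0.633 to 1.45) and was 1.51 (1.29 to 1.77) with median-ratio scaling, which shifts every gene by 0.27 in log2. The cause was not tested. The ratio of AR1-651 + AIL to AR1-651 was 0.418 in genes of introns only. That of AR1-651 + AIL to empty vector + AIL was 0.546 in genes of introns only. Over the 128 genes with at most 3 reads in every library, the AR1-651 ratios were 0.891 without AIL and 0.792 with it, but this set drops genes for being high in a library, so nothing is read from these values. Leaving out SNORD58B, the 3 genes with the most reads or those with part reads, or median-ratio scaling, kept both AIL ratios below 1, at 0.657 to 0.724 with empty vector and 0.533 to 0.609 with AR1-651. In genes of introns only the interval with empty vector held 1 (0.732, 0.458 to 1.16). The depth limits most single genes, since 128 of 167 had at most 3 reads in every library.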
